A study of Mus musculus with 6 samples.

Results

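The genes for the subunits of the transcription factor AP-1 were followed in the mouse fibroblast line L929, in 3 libraries labelled STING KO (Sting-/- in the design text) and 3 control libraries whose genotype label is WT. The rows were taken by gene symbol for the Jun genes (Jun, Junb, Jund), the Fos genes (Fos, Fosb, Fosl1, Fosl2), Batf, Batf3 and Atf3, which gave 10 of the 27507 gene identifiers in the table. The study asks, by its title, how gene expression depends on STING, the adaptor of cytosolic DNA sensing. No treatment is named for either group, and the labels do not say how the knockout was made, whether it is 1 clone, or whether replicates were separate cultures. The spread behind each p-value is therefore that of these samples alone and may be technical.

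AP-1 is a dimer of basic leucine zipper proteins that binds short palindromic DNA sites. Jun proteins can pair with each other or with Fos proteins, whereas Fos proteins need a Jun partner, and the Jun proteins differ in strength, JunB being in general a weaker activator than c-Jun. Batf proteins have no activation domain of their own and pair with Jun proteins at sites shared with IRF factors, mainly studied in lymphocytes and dendritic cells. Atf3 is induced by stress and can repress as a homodimer. In fibroblasts Fos, Fosb, Jun and Junb belong to the early genes that serum and cytokines induce within minutes, while Fosl1 and Fosl2 follow later and stay longer.

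Values are normalized counts, which are gene counts that the authors divided by a size factor of each sample, with totals of 14382072 to 14526606 per library. The RNA of the targeted gene (Tmem173, the older symbol of Sting1) was at 82.1, 80.6 and 93.4 in STING KO against 329.5, 313.2 and 310.9 in control, so the libraries go with their labels (log2 fold change -1.90, SE 0.09, limma adjusted p = 9.72e-06). The fibroblast markers Col1a1, Col1a2 and Vim were abundant in every library, with Vim at 79614 or more, but Dcn and Lum stayed at or under 4.99 outside STING KO replicate 1 and control replicate 3. These 2 libraries also stood apart in 16 hepatocyte markers, which summed to 5936 in STING KO replicate 1 and 6442 in control replicate 3, against 378.1 to 877.1 in the remaining 4 libraries. Alb led them, at 2552 and 2780. Of 12 macrophage and leukocyte markers, 6 stayed under 10 in every library, and the list summed to 831.3 to 986.8 in STING KO and to 781.7 to 919.9 in control. In cell populations, fewer expressing cells and less RNA per cell cannot be told apart.

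Of the 10 subunit genes, 7 had at least 10 normalized counts in at least 3 libraries and were tested, and Jund, Batf3 and Atf3 did not reach this minimum. Junb was the 1 member that limma called at an adjusted p at or under 0.05, and it fell in STING KO, while 0 members were called higher, also by limma-voom and in the authors' deposited table. Over all 12408 genes tested the adjusted p called 0.258% lower and 0% higher. At an unadjusted p at or under 0.05, 2 of the 7 members were lower and 0 higher, against 3.18% lower and 3.20% higher over all tested genes. Among the tested members 6 had a negative and 1 a positive log2 fold change, with a median of -0.09, against a median of -0.0025 and 50.8% negative signs over all tested genes. In 2 members, Junb and Fosl2, every STING KO value lay below every control value, which held for 6.32% of all tested genes. No member had every STING KO value above every control value, which held for 5.76%. For all 7 tested members the 95% interval of the fold change lay within 2-fold in both directions.

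**Figure D1:**
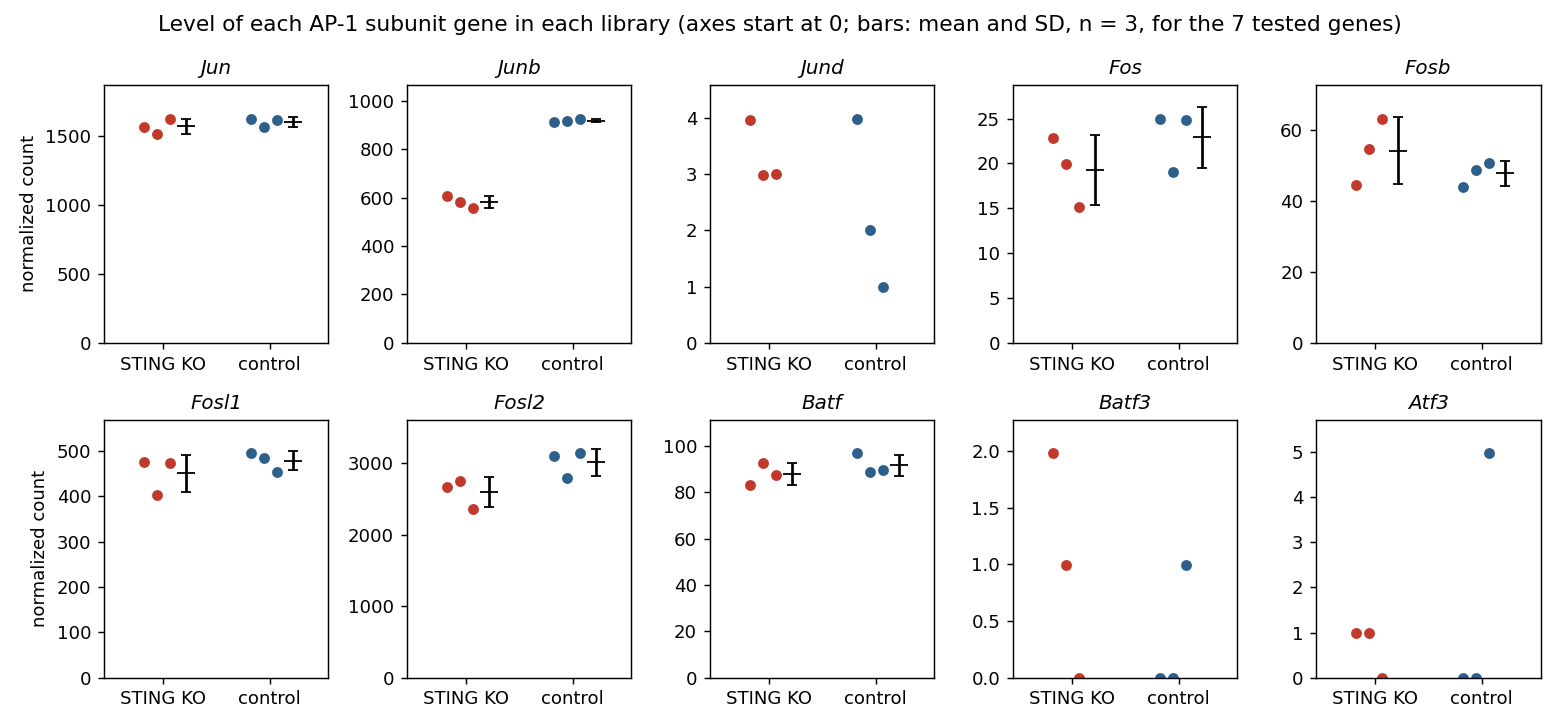
Normalized count (vertical axes, from 0) of each AP-1 subunit gene in the 3 STING KO libraries (red) and the 3 control libraries (blue), with mean and SD (n = 3) for the 7 tested genes. Junb is the gene whose groups are far apart, at 556.3 to 605.7 in STING KO and 912.5 to 925.9 in control, while Jund, Batf3 and Atf3 stay at or under 4.97 in every library.

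Junb, which encodes the Jun protein JunB, was at 605.7, 583.4 and 556.3 normalized counts in the STING KO libraries and at 912.5, 914.7 and 925.9 in the control libraries. The control values lay close together, and all 3 STING KO values lay well below them. The mean was 581.8 ± 24.7 in STING KO and 917.7 ± 7.16 in control (SD, n = 3 each), so that 63.4% of the control level was left. The log2 fold change was -0.66 (SE 0.06, limma adjusted p = 0.0010), with a 95% interval of -0.79 to -0.53. By its p-value Junb ranked 10 among all genes tested. The authors' deposited table also gives -0.66 on the log2 scale for Junb (SE 0.09, adjusted p = 3.92e-11), and its test called 0.251% of its genes lower.

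The Junb call held in each of the 6 fits that left out 1 library, with adjusted p from 0.000617 to 0.0168 by limma. Without both libraries rich in hepatocyte transcripts the log2 fold change was -0.68 (SE 0.09), as large as with them, but with 2 libraries per group the adjusted p was 0.0513, just outside the threshold.

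Junb (ENSMUSG00000052837) lies on chromosome 8 at 84974484 to 84978718 on the minus strand of GRCm38. Its annotated span shares 351 bases with Prdx2 on the opposite strand, a peroxiredoxin gene. Prdx2 was at 2768, 2701 and 3104 in STING KO and at 2587, 2847 and 2432 in control, with overlapping groups. Whether reads were counted by strand is not given in the sources used here.

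Jun, which encodes c-Jun, the founding member of the family, was at 1567, 1514 and 1626 normalized counts in STING KO and at 1622, 1563 and 1618 in control. The groups overlapped, and the highest of all 6 values was in STING KO. Jun averaged 1569 ± 55.8 in STING KO and 1601 ± 33.1 in control (SD, n = 3 each), and differed by -0.03 on the log2 scale (SE 0.05, limma adjusted p = 0.868). Its 95% interval, -0.14 to 0.09, does not reach the size of the Junb change. Jun (ENSMUSG00000052684) lies on chromosome 4 at 95049034 to 95052222 on the minus strand, in 1 exon. Its antisense gene Junos overlaps it by 689 bases and was not analysed here.

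Within each library the ratio of Junb to Jun was also lower in STING KO. The log2 ratio was -1.37, -1.38 and -1.55 in STING KO and -0.83, -0.77 and -0.81 in control, without overlap. The difference of the means, STING KO minus control, was -0.63 (exact two-sided permutation p = 0.10, the smallest that 3 samples against 3 allow).

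Jund encodes JunD, the Jun protein known as broadly present in resting cells, yet it was listed at 3.96, 2.99 and 3.01 normalized counts in STING KO and at 3.99, 2.0 and 0.993 in control. These are a handful of reads per library. Rounded to whole numbers they sum to 10 in STING KO and 7 in control, a ratio of 1.43 with an exact 95% interval of 0.491 to 4.42 that covers counting error only. No change of Jund was detectable at this depth, and why the row is so low in a fibroblast line was not tested. The log2 ratio of Junb to Jund, -1.34 in STING KO minus control (exact two-sided permutation p = 0.10), rests on these few reads: it was -1.83 without control replicate 1, -0.86 without control replicate 3 and -0.76 without both libraries rich in hepatocyte transcripts. The single exon of Jund (ENSMUSG00000071076) lies on chromosome 8 at 70698949 to 70700616 on the plus strand, and its antisense gene Gm11175, which overlaps 919 bases of it, was not analysed here.

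Per kilobase of the longest transcript, Junb and Jun stood nearly level in control, where Junb had 507.3 ± 3.96 and Jun 502.1 ± 10.4 normalized counts per kilobase (SD, n = 3 each) with overlapping ranges. In STING KO, Junb had 321.6 ± 13.7 and Jun 492.0 ± 17.5 (SD, n = 3 each). The 3 Jun genes together summed to 815.6 ± 15.0 per kilobase in STING KO and 1011 ± 12.1 in control (SD, n = 3 each). Junb made up 39.4 ± 1.64% of this sum in STING KO and 50.2 ± 0.523% in control (SD, n = 3 each). With the union of all exons as the length of a gene, the Junb share was 33.9 ± 1.54% in STING KO and 44.2 ± 0.516% in control (SD, n = 3 each), and Junb lay below Jun in control too, at 398.8 against 502.1 per kilobase. These shares follow from the values above and were not tested. They take the low Jund row as listed, so the sum and the shares hold only as far as that row does.

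**Figure D2:**
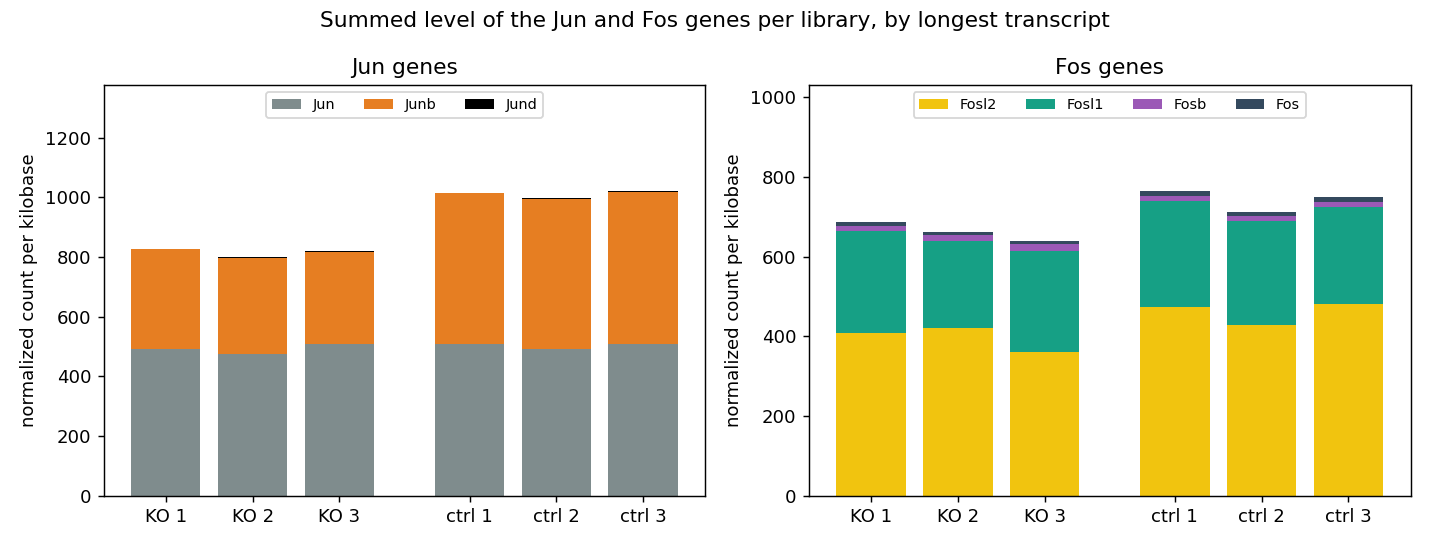
Normalized count per kilobase of the longest transcript (vertical axes, from 0) of the Jun genes (left) and the Fos genes (right), stacked for each STING KO (KO) and control (ctrl) library. The Junb block is 307.5 to 334.8 high in STING KO and 504.4 to 511.8 in control, on Jun blocks of similar height in all 6 libraries.

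The promoter windows of Junb, Jun and Fosl2 are shown because these are the called Jun gene, the other abundant Jun gene, which was not called, and the Fos gene whose groups did not overlap. They are from RefSeq on GRCm38.p6, 250 bases before to 50 after the RefSeq start, for Junb at chr8:84978699-84978998 and for Jun at chr4:95052173-95052472 (both on the minus strand), and for Fosl2 at chr5:32136222-32136521 (plus strand). Capitals mark matches, on either strand, to any of 7 motifs. These were the AP-1 site (TGANTCA), the CRE bound by CREB and ATF proteins (TGACGTCA), the CArG box bound by SRF, the STAT site (TTCNNNGAA), the kappaB site of NF-kB, the TATA box (TATAAA) and the CCAAT box (CCAAT). The last 2 were added after the sequences were seen.
Junb: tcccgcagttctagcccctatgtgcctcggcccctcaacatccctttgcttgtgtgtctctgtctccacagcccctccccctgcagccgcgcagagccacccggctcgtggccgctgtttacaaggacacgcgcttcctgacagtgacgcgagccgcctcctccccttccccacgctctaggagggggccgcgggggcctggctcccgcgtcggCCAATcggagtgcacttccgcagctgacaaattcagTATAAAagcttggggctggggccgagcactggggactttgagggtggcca
Jun: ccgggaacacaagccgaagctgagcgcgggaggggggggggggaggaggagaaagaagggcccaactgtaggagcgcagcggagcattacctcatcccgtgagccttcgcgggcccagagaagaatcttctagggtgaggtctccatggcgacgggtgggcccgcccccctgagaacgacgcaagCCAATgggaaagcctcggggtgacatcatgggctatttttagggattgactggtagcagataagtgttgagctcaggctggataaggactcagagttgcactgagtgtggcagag
Fosl2: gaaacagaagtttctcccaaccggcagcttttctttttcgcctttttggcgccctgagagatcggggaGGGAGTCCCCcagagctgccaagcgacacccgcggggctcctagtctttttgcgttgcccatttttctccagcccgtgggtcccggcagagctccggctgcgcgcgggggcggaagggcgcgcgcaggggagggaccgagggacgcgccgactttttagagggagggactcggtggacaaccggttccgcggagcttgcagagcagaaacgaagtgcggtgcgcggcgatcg

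The Junb window holds a CCAAT box that begins 36 bases before the RefSeq start and a TATA box at that start, which lies 30 bases upstream of the GENCODE start. The Jun window holds a CCAAT box that begins 65 bases before its start. The Fosl2 window holds a kappaB match 182 bases before its RefSeq start, which matches on both strands. The GENCODE start of Fosl2 lies further upstream than this window, so the window lies within the annotated span of the gene. Neither the Junb nor the Jun window matches the AP-1, CRE, CArG, STAT or kappaB motif. Only exact matches to each pattern were sought, so sites that differ from it by a base are not marked and may be present. Of all 32851 RefSeq promoter windows of this length, 7.81% hold the AP-1 site, 1.79% the CRE, 1.63% the CArG box, 8.30% the STAT site, 5.80% the kappaB site, 13.6% the TATA box and 37.4% the CCAAT box. Windows were found for 9 of the 10 members, and the kappaB motif was matched in those of Fos, Fosb and Fosl2. The windows of Jund, Batf3 and Atf3, like that of Fosl2, do not include the GENCODE start of their gene.

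The Fos genes were led by Fosl2, which encodes Fra-2. Fosl2 was at 2670, 2756 and 2356 normalized counts in STING KO and at 3100, 2799 and 3141 in control. The groups did not overlap, but the highest STING KO value, 2756, lay close to the lowest control value, 2799. Fosl2 averaged 2594 ± 210.7 in STING KO and 3013 ± 186.8 in control (SD, n = 3 each), or 86.1% of the control level. The difference, -0.22 on the log2 scale (SE 0.07), was not called, with a limma adjusted p of 0.717 and an unadjusted p of 0.0127. By its p-value Fosl2 ranked 220 among the 12408 genes tested, of which 3.18% were lower at an unadjusted p at or under 0.05. The authors' deposited table gives an adjusted p of 0.929. Fosl2 (ENSMUSG00000029135) lies on chromosome 5 at 32135801 to 32157842 on the plus strand.

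Fosl1 encodes Fra-1, a Fos protein typical of growing and transformed cells. It was at 476.1, 404.2 and 473.0 normalized counts in STING KO and at 495.2, 485.8 and 455.0 in control. The groups overlapped, and STING KO replicate 2 was the lowest of the 6. The log2 fold change was -0.09 (SE 0.08, limma adjusted p = 0.766), with a 95% interval of -0.27 to 0.09. The span of Fosl1 (ENSMUSG00000024912) on chromosome 19, at 5447547 to 5455946, shares 2767 bases with Ccdc85b on the opposite strand. Ccdc85b was at 907.6, 762.6 and 1015 in STING KO and at 888.6, 906.8 and 861.3 in control, so its lowest value was also in STING KO replicate 2.

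Fos and Fosb, the early genes of this family, were low in these cells. Fos was at 22.8, 19.9 and 15.1 normalized counts in STING KO and at 25.0, 19.0 and 24.8 in control. Fosb was at 44.5, 54.8 and 63.3 in STING KO and at 43.9, 48.9 and 50.7 in control. Both genes had overlapping groups. Their log2 fold changes had opposite signs, -0.26 (SE 0.25, limma adjusted p = 0.774) for Fos and 0.17 (SE 0.17, limma adjusted p = 0.783) for Fosb. With so few reads the intervals are wide, -0.82 to 0.30 for Fos and -0.21 to 0.54 for Fosb, so a change of the size seen in Junb lies inside that of Fos. Fos (ENSMUSG00000021250) lies on chromosome 12 at 85473890 to 85477273 on the plus strand, and Fosb (ENSMUSG00000003545) on chromosome 7 at 19302696 to 19310051 on the minus strand.

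Per kilobase, Fosl2 and Fosl1 held nearly all of the Fos gene level. Fosl2 made up 59.9 ± 3.60% in STING KO and 62.2 ± 1.92% in control, and Fosl1 36.6 ± 3.56% in STING KO and 34.7 ± 2.06% in control (SD, n = 3 each). The shares of Fos and Fosb were each at or under 2.62% in every library. The 4 Fos genes summed to 662.3 ± 24.2 per kilobase in STING KO and 741.3 ± 27.3 in control (SD, n = 3 each), which follows mainly from Fosl2 and was not tested.

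Batf was the 1 Batf gene with appreciable reads. It was at 83.1, 92.6 and 87.4 normalized counts in STING KO and at 96.8, 88.8 and 89.4 in control, with overlapping groups. The log2 fold change was -0.06 (SE 0.11, limma adjusted p = 0.866) and its 95% interval -0.31 to 0.18. Batf3, known for its part in dendritic cell development, was listed at 1.98, 0.996 and 0 in STING KO and at 0, 0 and 0.993 in control, too few reads for a fold change. Batf (ENSMUSG00000034266) lies on chromosome 12 at 85686669 to 85709087 and Batf3 (ENSMUSG00000026630) on chromosome 1 at 191097847 to 191108945, both on the plus strand.

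Atf3, the stress-induced member, was listed at 0.99, 0.996 and 0 normalized counts in STING KO and at 0, 0 and 4.97 in control. Its highest value was in control replicate 3, 1 of the 2 libraries rich in hepatocyte transcripts, whose part in this value was not tested. Rounded and summed, this is 2 in STING KO against 5 in control, which gives a ratio of 0.400 (exact 95% interval for counting error 0.0381 to 2.44). Atf3 (ENSMUSG00000026628) lies on chromosome 1 at 191170296 to 191218039 on the minus strand.

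In STING KO, the order of levels per kilobase of the longest transcript ran from Jun (492.0 ± 17.5) over Fosl2 (396.8 ± 32.2), Junb (321.6 ± 13.7), Fosl1 (242.0 ± 21.8) and Batf (91.8 ± 4.96) to Fosb (14.3 ± 2.48) and Fos (9.13 ± 1.85; SD, n = 3 each). In control, Junb (507.3 ± 3.96) and Jun (502.1 ± 10.4) came first, then Fosl2 (461.0 ± 28.6), Fosl1 (256.8 ± 11.3), Batf (96.0 ± 4.70), Fosb (12.6 ± 0.923) and Fos (10.9 ± 1.63; SD, n = 3 each). Junb thus stood below Fosl2 in all 3 STING KO libraries and above it in all 3 control libraries. With the union of exons as length, Junb lay at 252.9 and Fosl2 at 268.0 per kilobase in STING KO, against 398.8 for Junb and 311.3 for Fosl2 in control. The order of these 2 means turned in the same way, but their ranges overlapped in STING KO on that length. On that length Fosb lay at 8.68 and Fos at 8.18 in STING KO, against 7.66 for Fosb and 9.74 for Fos in control, where their order was the reverse of that on the longest transcript. Of the neighbours by the longest transcript, Junb and Jun, and Fosb and Fos, had overlapping ranges in control. By the union of exons, the ranges of Fosb and Fos overlapped in both groups. Jund, Batf3 and Atf3 were at or under 2.50 per kilobase in every library.

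**Figure D3:**
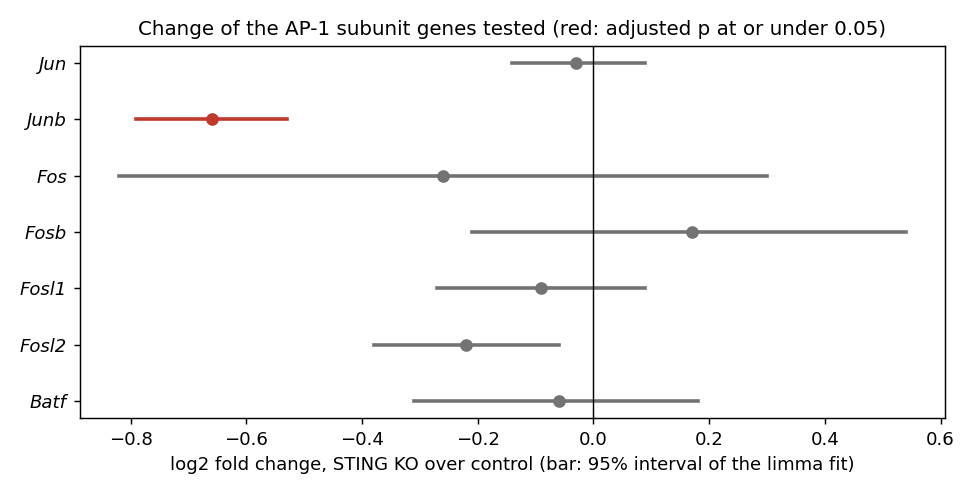
Log2 ratio of STING KO to control (horizontal axis) with its 95% interval from the limma fit for the 7 tested AP-1 subunit genes. Junb at -0.66 is the 1 called gene (red), Fosl2 lies at -0.22 and not called, and the intervals of Jun, Fos, Fosb, Fosl1 and Batf include 0.

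The genes whose pattern over the 6 libraries was most like that of Junb were Sbno2, Osmr, Gypc, Tnip1 and Nfkbiz. Likeness was the root mean square difference in log2 value after each gene was centred on its own mean, and genes averaging 5 CPM or more were compared. It was 0.0596 for Sbno2, 0.0666 for Osmr, 0.0821 for Gypc, 0.0846 for Tnip1 and 0.0851 for Nfkbiz, against a median of 0.338 over the 10237 genes compared. Sbno2 is a transcriptional co-regulator of cytokine responses, Osmr the receptor chain for oncostatin M, and Gypc a membrane sialoglycoprotein. Tnip1 binds A20 and restrains NF-kB, and Nfkbiz is an atypical IkB protein of the nucleus.

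Osmr was at 770.0, 864.2 and 772.2 normalized counts in STING KO and at 1230, 1219 and 1270 in control. Sbno2 was at 1107, 1020 and 1081 in STING KO and at 1679, 1577 and 1612 in control. Nfkbiz was at 906.6, 882.1 and 863.6 in STING KO and at 1561, 1548 and 1589 in control. The choice by likeness to Junb in these libraries fixed the direction and the gap between the groups, so the values of the 5 genes are a description. Their limma log2 fold changes ran from -0.82 (Nfkbiz, SE 0.05, adjusted p = 6.58e-05) to -0.51 (Gypc, SE 0.07, adjusted p = 0.0155). The Gypc call was lost in 3 of 6 fits that left out 1 library: its adjusted p was 0.0699 when STING KO replicate 2 was left out, 0.154 for control replicate 1 and 0.121 for control replicate 3. Without both libraries rich in hepatocyte transcripts, Sbno2 (0.0619), Osmr (0.138), Tnip1 (0.0878) and Gypc (0.337) were not called, and Nfkbiz was (0.0120).

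**Figure D4:**
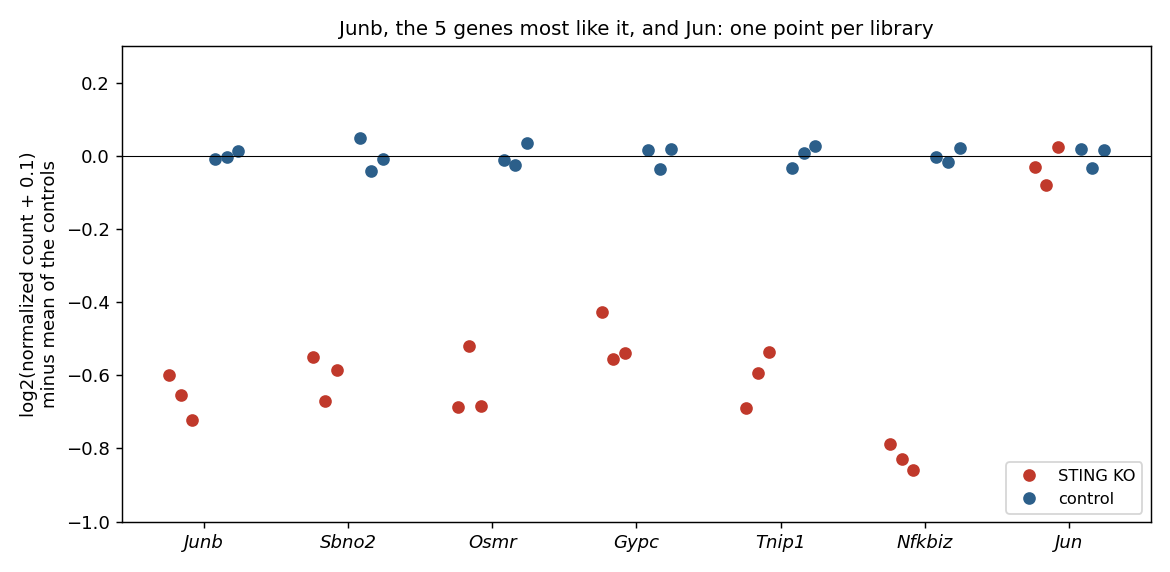
Log2(normalized count + 0.1) minus the mean of the controls (vertical axis) in the 3 STING KO libraries (red) and 3 control libraries (blue), for Junb, the 5 genes most like it in pattern, and Jun. The 5 genes were chosen for this likeness, so their STING KO points lie below their control points by choice, and the points of Jun overlap around 0.

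The transcription factors that act on the Fos and Junb promoters are mainly SRF with its partners, CREB and STAT3, the last of which cytokines of the interleukin-6 family use to induce Junb. Of 12 tested members of this list 0 were called by limma in either direction, against 0.258% lower and 0% higher over all tested genes. At an unadjusted p at or under 0.05, 1 was lower and 0 higher, against 3.18% lower and 3.20% higher. In the list 11 had a negative and 1 a positive sign (median log2 fold change -0.09), against 50.8% negative signs over all tested genes. Limma-voom called 0 of the 12, while Stat3 was called in the authors' deposited table. Stat3 was at 1991, 2071 and 1886 normalized counts in STING KO and at 2534, 2398 and 2527 in control, without overlap. Its log2 fold change was -0.33 (SE 0.05), with a limma adjusted p of 0.0554, just outside the threshold, and 0.000705 in the authors' deposited table. In the fits without 1 library its limma adjusted p ran from 0.0660 to 0.470. Srf, the serum response factor, averaged 1374 ± 90.2 in STING KO and 1465 ± 20.6 in control (SD, n = 3 each; limma adjusted p = 0.738).

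Upstream of AP-1, the ERK, JNK and p38 cascades phosphorylate Jun, Fos and ternary complex factors. Limma, limma-voom and the authors' deposited table called 0 of 31 tested kinase and scaffold genes, and 1 had an unadjusted p at or under 0.05, with 21 negative and 10 positive signs (median log2 fold change -0.03). Over all tested genes limma called 0.258% lower and 0% higher, and 50.8% had a negative sign. At that unadjusted p, 3.18% of all tested genes were lower and 3.20% higher, shares that also stand beside the lists below in this paragraph. The largest change was in Map3k8, the kinase TPL2, at 22.8, 18.9 and 16.1 normalized counts in STING KO and at 30.9, 23.9 and 33.8 in control (log2 fold change -0.62, SE 0.23, limma adjusted p = 0.738). The same tests called 0 of the 11 dual specificity phosphatases of MAP kinases, and 1 had an unadjusted p at or under 0.05 (median log2 fold change 0.03), with Dusp14 at 0.18 and Dusp16 at -0.18 the furthest from 0 (limma adjusted p = 0.738 for both). They also called 0 of 15 genes for turnover of Fos and Jun proteins, of which 1 had an unadjusted p at or under 0.05 (median log2 fold change -0.04).

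Of 19 tested genes for other basic leucine zipper partners, limma, limma-voom and the authors' deposited table called 0, and 5 had an unadjusted p at or under 0.05, 3 lower and 2 higher, against 3.18% lower and 3.20% higher over all tested genes. In all, 14 had a negative and 5 a positive sign (median log2 fold change -0.08). Jdp2, a Jun dimerization protein that represses AP-1 sites, averaged 932.0 ± 70.6 in STING KO and 926.7 ± 27.6 in control (SD, n = 3 each; limma adjusted p = 0.979). Cebpb, which can pair with Fos proteins and Atf4, did not overlap, at 1546, 1289 and 1415 normalized counts in STING KO and at 1664, 1747 and 1645 in control (log2 fold change -0.25, SE 0.07, limma adjusted p = 0.531).

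Among the other immediate early genes 0 of 21 tested members were called by limma, limma-voom or the authors' deposited table, and 4 had an unadjusted p at or under 0.05, 3 lower and 1 higher, against 3.18% lower and 3.20% higher over all tested genes (14 negative and 7 positive signs, median log2 fold change -0.03). Egr1, the zinc finger factor often induced along with Fos, averaged 432.7 ± 22.3 in STING KO and 435.4 ± 25.4 in control (SD, n = 3 each; limma adjusted p = 0.972). Ier3 had the largest change, at 262.3, 257.9 and 296.2 normalized counts in STING KO and at 341.4, 396.0 and 377.5 in control (log2 fold change -0.45, SE 0.09). Its limma adjusted p was 0.143, and 0.0448 without STING KO replicate 3. Among 11 factors of early mRNA decay, 1 was called lower, which is 9.09% against 0.258% of all tested genes. This was Zc3h12a, the RNase Regnase-1, at 222.7, 199.1 and 208.9 normalized counts in STING KO and at 840.6, 818.0 and 752.0 in control (-1.93 on the log2 scale, SE 0.07, limma adjusted p = 1.8e-06). The list of decay factors was chosen with earlier results of these data known, so its share of calls is not independent evidence. Zfp36, tristetraprolin, which binds AU-rich elements such as that of Fos, averaged 258.1 ± 5.70 in STING KO and 283.3 ± 5.08 in control (SD, n = 3 each; limma adjusted p = 0.738).

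Of 25 tested genes listed as AP-1 targets, limma called 5 lower and 0 higher, which is 20.0% against 0.258% of all tested genes. AP-1 sites were not searched for in the genes of this list. Limma-voom called 4, without Lif (adjusted p = 0.0556), and limma with no filter 3, without Lif (0.10) and Fgf7 (0.0592). The 5 were Cxcl1, Ccl2, Il6, Lif and Fgf7, 4 of them cytokine or chemokine genes also known as targets of NF-kB or C/EBP factors. The list was put together with earlier results of these data known, so its count is not independent evidence of a direction. Its median log2 fold change was -0.05, and the signs were 15 negative and 10 positive. Cxcl1 had the largest change (log2 fold change -4.37, SE 0.18, limma adjusted p = 2.9e-06), with 23.8, 16.9 and 14.1 normalized counts in STING KO and 388.4, 386.1 and 339.8 in control. Ccl2, a chemokine for monocytes, was at 289.0, 266.8 and 262.1 in STING KO and at 2343, 2219 and 2505 in control. Il6, a cytokine gene, averaged 11.6 ± 1.08 in STING KO and 57.5 ± 5.51 in control (SD, n = 3 each). In all 3 genes the groups lay far apart. Lif, a cytokine related to interleukin-6, was at 81.2, 85.6 and 82.3 in STING KO and at 123.8, 146.6 and 160.9 in control, and the growth factor gene Fgf7 at 733.4, 789.5 and 706.9 in STING KO and at 1017, 957.6 and 1077 in control. The calls of Lif and Fgf7 were lost in several fits without 1 library. The limma adjusted p of Lif was 0.220 and 0.0997 without STING KO replicates 1 and 2, and 0.121 and 0.202 without control replicates 2 and 3. That of Fgf7 was 0.242 without STING KO replicate 1, and 0.237 and 0.202 without control replicates 1 and 3. Without both libraries rich in hepatocyte transcripts, 3 of the 5 were called, namely Cxcl1, Ccl2 and Il6.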

How the data were processed

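Poly(A) RNA of L929 cells was sequenced in 6 samples, isolated with TRIzol and oligo(dT) beads per the labels' protocols. The deposited table holds, per sample, a signal (normalized count), which the authors obtained from gene counts by means of 1 size factor a sample: 100% of values above 0 are whole multiples, within 0.01, of a step of 0.990 to 1.00 per column. Per the file headers it also holds the authors' log2 fold change and standard error, the score of their Wald test, its p-value and the p-value after adjustment. The submitters' processing notes name DESeq2 1.4.5, RSEM 1.2.12, Bowtie2 2.2.5 and HISAT2 2.0.4, and the builds GRCm38 and mm10, without their roles. The annotation used and the strand setting were not given in these sources.

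The first row of each of 27507 identifiers was kept (314 rows repeat one). limma 3.58.1 (R 4.3.3, mean-variance trend, no covariate) was run on log2(normalized count + 0.1) for the 12408 genes with at least 10 in at least 3 samples. Genes were called at an adjusted p (Benjamini-Hochberg, over all of them) of 0.05 or less. Fold changes on this scale understate those of low genes. The fit was checked on simulated counts with the same variability setting for every gene. These had no hepatocyte-rich libraries and no shared batches, so that check does not bear on either. Coordinates and lengths are from GENCODE M21. The members and the 11 other lists were chosen with earlier results of these data known. The rule for named genes was all members, the 5 genes most like Junb and, of each list, called genes and, where described, those among the 2 with the largest change; not all of these are named. Srf, Jdp2, Egr1, Zfp36 and the markers were named after their values were seen. Same-numbered samples did not deviate together, so replicate numbers were not used as pairs. Counting intervals cover counting error only.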

Additional observations from a re-analysis of the deposited data

How the results depend on the processing

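Other settings were a pseudocount of 1, no filter, a minimum mean of 5 CPM, upper-quartile, TMM and total scaling, limma-voom, a replicate block, the authors' deposited test, leaving out each library, and leaving out both libraries rich in hepatocyte transcripts. A planned count test on reads recovered from the steps of the columns was not run. Under these alternatives, 109 of 110 log2 fold changes of tested members kept their call, 0 turned sign, and 1 was no longer past it: Junb without both those libraries, at -0.68, where 0 members were called. Leaving out 1 library gave -0.69 to -0.63 for Junb, -0.66 to -0.57 for the log2 ratio of Junb to Jun and -1.83 to -0.86 for that of Junb to Jund. It left 21 to 35 genes called lower over all tested genes and 0 to 2 higher, and 1 member lower and 0 higher throughout. Over all genes, 13 were called lower without both libraries and 6 higher by the authors' test, against 32 lower and 0 higher. With the replicate block limma called 18 genes lower, and the Junb adjusted p was 0.0326, while Gypc (0.184), Lif (0.170) and Fgf7 (0.355) were no longer called, which left 3 AP-1 target genes called. Deviations of same-numbered libraries correlated at -0.1832, -0.1804 and -0.4884, so the replicate numbers do not pair the samples. By the sum of hepatocyte markers, libraries of unlike number lay closest across the groups. It was 877.1 in STING KO replicate 2 and 851.6 in control replicate 1. STING KO replicate 3 had 414.7 and control replicate 2 had 378.1. Both libraries rich in hepatocyte transcripts were also of unlike number. The first principal component, the axis of largest spread over the tested genes (40.3% of the variance), did not separate the groups. Along it, control replicate 3 (-21.67) and STING KO replicate 1 (-12.08) came first. Control replicate 1 (-2.56) and STING KO replicate 2 (-0.01) followed, then control replicate 2 (15.18) and STING KO replicate 3 (21.14). Whether libraries share a batch across numbers was not tested. Scaling moved the median log2 fold change of all genes to at most 0.0166. Depth limits what can be said of Fos, Fosb, Jund, Batf3 and Atf3.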
